A study of Solanum lycopersicum with 12 samples.

Results

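Peroxidases are enzymes that reduce hydrogen peroxide or organic peroxides with the help of a partner molecule that is oxidised in turn. The peroxidase genes described here are the 77 genes, of 24215 in the deposited table, whose gene ontology entry holds the term for peroxidase activity. Of these, 42 reached an FPKM (fragments per kilobase of gene, scaled to the library's mapped fragments) of at least 1 in at least 3 of 12 libraries, and they are the members described below. The libraries were made from fruits of tomato (Solanum lycopersicum): a yellow tomato with the number 19 and a red tomato with the number 20, each picked on day 40 after anthesis, at color break, and on day 55, at maturity. The 4 groups are therefore yellow at color break, red at color break, yellow at maturity and red at maturity, with 3 libraries each, and no treatment or introduced allele is recorded for any of them. The series sets out to compare the expression of flavor and color between closely related tomatoes. The labels give neither cultivar names nor the source of the replicates, so that every p-value rests on the spread among these libraries alone, which may be technical, and they do not say whether seeds were taken out of the fruits.

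Plant peroxidases fall into families that share a reaction and little else. Class III peroxidases are heme enzymes that carry a secretion signal, work in the cell wall and vacuole, and are best known for joining lignin and other phenolic units and for stiffening walls. Ascorbate peroxidases (heme enzymes of the cytosol, plastid and peroxisome), glutathione peroxidases, peroxiredoxins and catalases instead remove peroxide inside the cell, and in a ripening fruit they act while chloroplasts turn into pigment-rich chromoplasts.

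The descriptions and more specific terms of the table separated the 42 members into 7 class III peroxidases, 8 ascorbate peroxidases, 3 glutathione peroxidases, 2 thioredoxin-dependent peroxidases or peroxiredoxins, 2 catalases and 4 genes of the NADPH oxidase type, which also carry the peroxidase term. A further 9 had heme peroxidase terms and no description that tells the class. The last 7 were 5 genes described as something else (2 annexins, an alpha-dioxygenase, a superoxide dismutase and a tRNA modification protein) and 2 undescribed genes with glutathione transferase or disulfide reductase terms. In all, 21 members had a description and 21 had none. The class III family lost most to the filter: 7 of its 26 genes passed, against 8 of 9 ascorbate peroxidases, both catalases and all 3 glutathione peroxidases. Nearest to the limit, the third-highest FPKM was 1 for the class III gene Solyc01g105070 and 1.02 for Solyc07g042460 among the members, and 0.914, 0.909 and 0.897 for Solyc01g099620, Solyc08g081690 and Solyc02g080530 just outside it. The first pair of those outside are the respiratory burst oxidase homologs B and F, the NADPH oxidases of the plasma membrane that make superoxide.

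Total counts ran from 50963462 to 60854667 per library, of which the members took between 0.5303% and 0.704%. Replicate 1 of red at maturity stood apart from replicates 2 and 3 of its group: on the first principal component it lay at 78.6, against 131 and 130.04, and the yellow libraries at maturity lay between 1.78 and 2.96. Results of the members that rest on this library are given with and without it. RNA came from fruits with many cell types, so a lower level may reflect fewer cells of a type or less RNA per cell, which cannot be told apart here. Markers of the seed were present: 12 seed genes summed to between 725 and 781 FPKM in yellow and between 1166 and 1230 in red at color break, and to between 262 and 280.0 in yellow and between 183 and 216 in red at maturity. Most of the sum in red at maturity was that of Solyc01g095150, a late embryogenesis-like gene, at 187, 176.8 and 176.8 FPKM. Its mean was 134 FPKM in red at color break, and in yellow 140 at color break and 156 at maturity. The scale matters a little as well, since the median gene was higher by 0.12 in red than in yellow at maturity, and by 0.14 at maturity than at color break in red, on the log2(FPKM + 1) scale, whereas the count test sets these medians near 0 (0.003 and 0.0019).

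In FPKM, which is set per length, a few members held most of the peroxidase RNA. The 5 with the highest mean were the ascorbate peroxidase gene APX2 (Solyc09g007270), thioredoxin peroxidase 1 (Solyc07g020860), the catalase-type gene Solyc12g094620, the glutathione peroxidase Solyc08g080940 and the annexin Solyc04g073990. Together they made up 64.6% to 64.9% of the members' summed FPKM in yellow and 69.6% to 69.9% in red at color break, and 67.2% to 67.5% in yellow and 70.1% to 71.0% in red at maturity. The 7 class III genes made up between 1.48% and 2.36% in every library. Mean FPKM over the 4 groups was at least 100 for 8 members, from 10 to under 100 for 15, from 5 to under 10 for 4 and under 5 for 15, of which 5 were class III. Summed over the 42 members, FPKM was 3212 ± 47.5 (SD, n = 3 here and for every group mean below) in yellow and 3975 ± 52.2 in red at color break, and 3609 ± 34.6 in yellow and 3534 ± 107 in red at maturity.

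**Figure D1:**
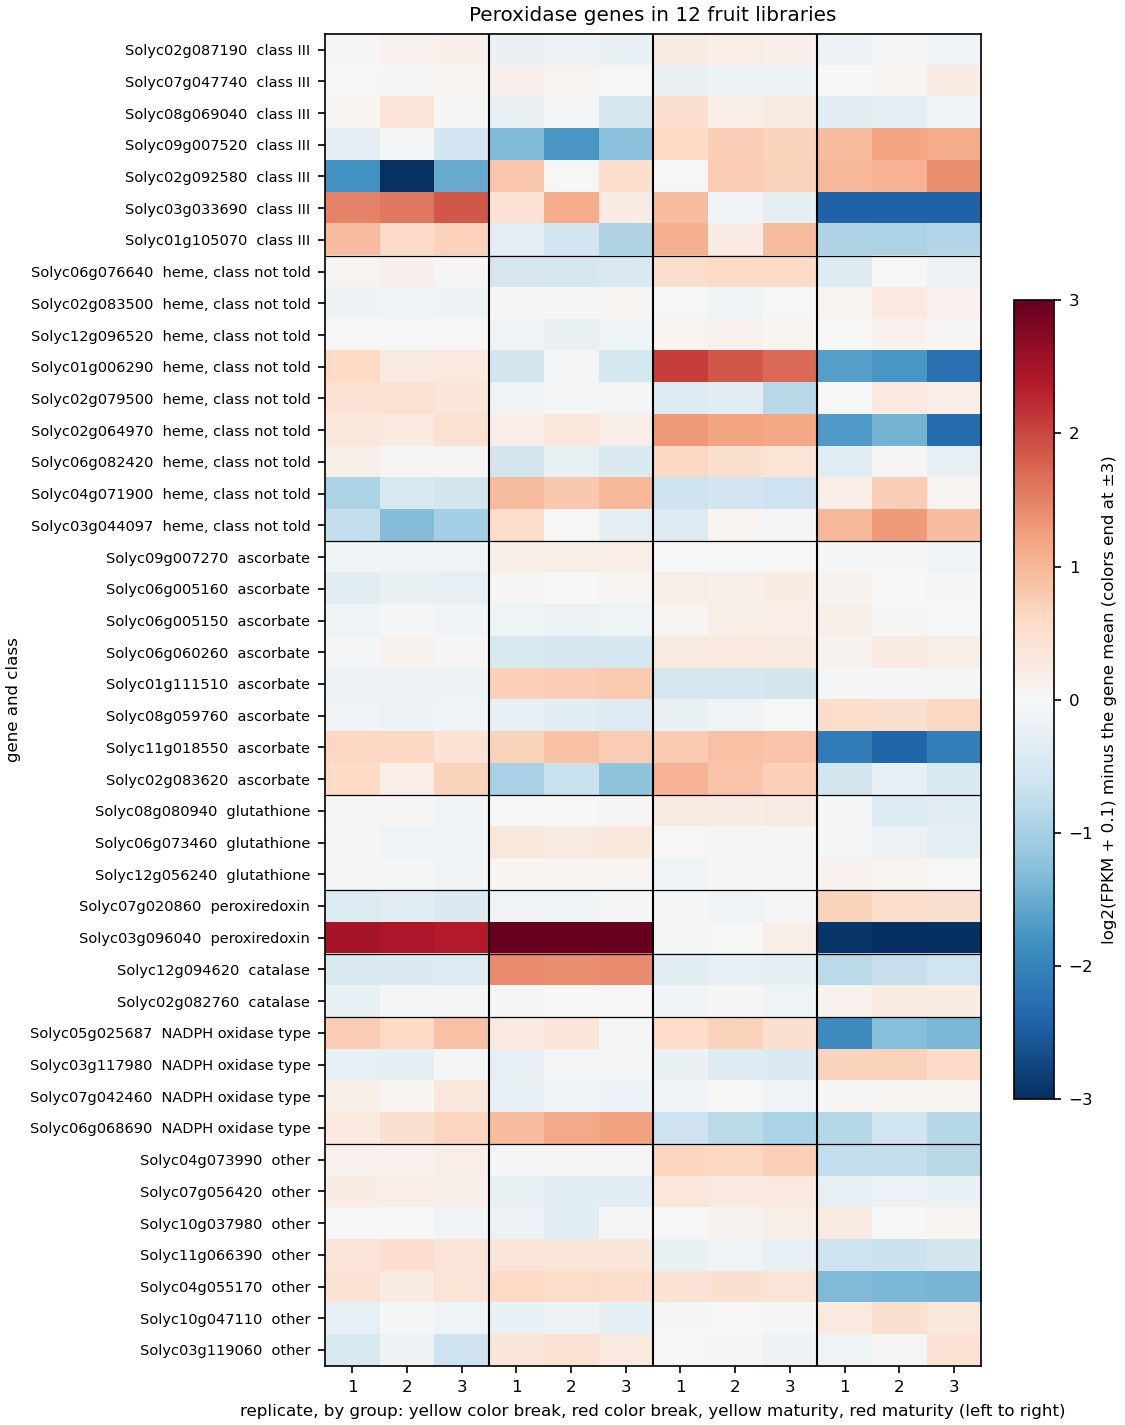
Each row is 1 of the 42 peroxidase genes and each column 1 of the 12 libraries, and the color gives log2(FPKM + 0.1) minus the mean of the gene over all libraries, with colors ending at 3 above and below. The peroxiredoxin Solyc03g096040 and the class III gene Solyc03g033690 are darkest blue in red at maturity, the catalase-type gene Solyc12g094620 is high in red at color break, and the high ascorbate and glutathione peroxidases are pale throughout.

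A gene was called changed when edgeR's quasi-likelihood test, fitted on the counts of all 15974 genes past the filter, gave it a p under 0.05 after Benjamini-Hochberg adjustment over those genes, and its log2 fold change was 1 or more in either direction. Red against yellow at color break called 8 of the 42 members (19.0%), 4 higher and 4 lower in red, while 6.2% of all tested genes were called (4.12% higher and 2.08% lower). At maturity it called 11 (26.2%), 1 higher and 10 lower, beside 11.1% of all genes (3.26% higher and 7.89% lower). The passage from color break to maturity called 6 members in yellow (14.3%), 3 in each direction, beside 6.35% of all genes (1.47% higher and 4.88% lower). In red it called 11 (26.2%), 1 higher and 10 lower, beside 15.5% of all genes (3.93% higher and 11.5% lower). Most calls thus pointed down in the ripe red fruit, as they did among all genes. With total counts alone as the scale, the split at maturity was 3 higher and 10 lower of 13. Among all genes that scale called 608 higher and 1122 lower at maturity, where the main fit called 521 and 1260. On the log2(FPKM + 1) scale, which damps low genes, limma called 1, 7, 2 and 7 members in the 4 comparisons in the order given. Beside these stood 3.25%, 5.9%, 3.52% and 10.4% of all genes.

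The median log2 fold change of the members was -0.05 between the tomatoes at color break, -0.22 at maturity, 0.09 for the stage change in yellow and -0.14 for that in red, where the median of all tested genes was 0.0001, 0.003, -0.0018 and 0.0019. Setting the member with 0 counts in red at maturity, Solyc03g033690, to its bound leaves the members' medians as they are. Many members differed by a small amount: 24, 22, 19 and 15 passed the adjusted p in these comparisons without reaching the minimum change. The share of all genes that did so was not counted. An edgeR p under 0.05 before adjustment was common among all 15974 genes, at 7762, 9847, 7626 and 10794 of them. Among the 42 members it was reached by 33, 34, 27 and 29. A member that entered the list only through the group where it was high had to differ between groups, so these counts describe the members that passed and are no evidence about the family. Among the 29 members with an FPKM of at least 1 in all libraries, the counts of calls were 1 and 4 between the tomatoes and 5 for the stage change in red. All tested genes, a wider set, gave 6.2%, 11.1% and 15.5%, and the share among genes at that FPKM in every library was not counted. The other 13 members held 7, 7 and 6 calls in these comparisons, and each of the 6 calls for the stage change in yellow. Across the 4 comparisons, 17 members were called at least once and 25 were not. The share of all genes called at least once was not counted, so this only describes the members.

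**Figure D2:**
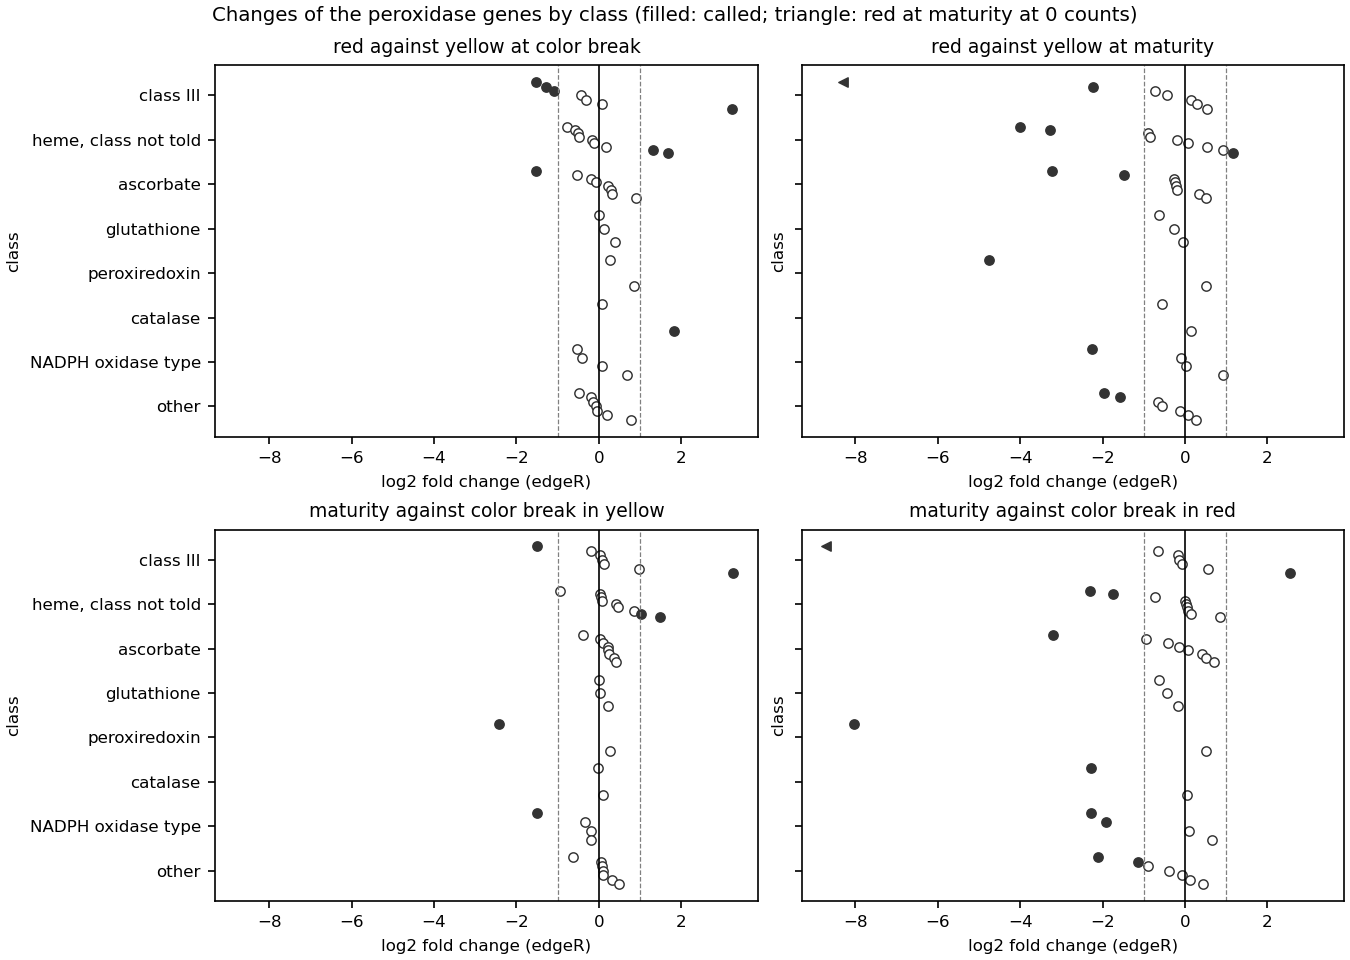
Each panel is 1 comparison, each point 1 of the 42 peroxidase genes, and the x axis the edgeR log2 fold change, with classes on the y axis and dashed lines at a log2 fold change of 1 in either direction. Filled points were called, and the triangle is Solyc03g033690, whose fitted value is no bound because red at maturity held 0 counts; of the called points at maturity, 10 of 11 lie on the left.

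Of the enzymes that remove peroxide inside the cell, the catalases held 1 gene that was called and 1 that was not. Catalase is the heme enzyme of peroxisomes that splits hydrogen peroxide into water and oxygen. Solyc12g094620, a gene with catalase terms and no description (chromosome 12, 65780218 to 65785116, plus strand, in the coordinates of the table, whose genome build is not given in the sources used here), had an FPKM of 139, 139 and 143 in yellow at color break. In red at color break it had 504, 498 and 501. At maturity it stood at 149, 159 and 156 in yellow and at 107, 117 and 124 in red. The 3 red libraries at color break were thus far above the other 9, and the red libraries were below the yellow ones at maturity, with no overlap at either stage.

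Solyc12g094620 was 3.57-fold higher in red than in yellow at color break (log2 fold change 1.83 ± 0.04 SE, edgeR adjusted p = 1.2e-12). In red it fell 4.83-fold to maturity (-2.27 ± 0.04, edgeR adjusted p = 5.69e-14), while its change in yellow was 0.11 ± 0.04 and not called. Red ended slightly below yellow, by 0.55 ± 0.04 on the log2 scale, which is less than the minimum change. The stage changes differed by -2.39 ± 0.06 (edgeR adjusted p = 4.66e-12). The gene described as Catalase, Solyc02g082760, had mean FPKM of 40.0, 42.3, 40.4 and 48.9 in yellow and red at color break and yellow and red at maturity. Its largest absolute log2 fold change in a comparison of 2 groups was 0.14.

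The 8 ascorbate peroxidases, which pass electrons from ascorbate (vitamin C) to hydrogen peroxide, gave 1 call between the tomatoes at color break and 2 at maturity, all lower in red. Among all genes, 2.08% and 7.89% were called lower in these comparisons. For the stage change 1 was lower in red, beside 11.5% of all genes. In yellow the 8 log2 fold changes lay between -0.39 and 0.42. The largest changes of the class were those of Solyc11g018550, which has ascorbate peroxidase terms, terms for the chloroplast and membrane, and no description (chromosome 11, 8671912 to 8678516, plus strand). Its FPKM was 9.53, 9.59 and 8.32 in the yellow libraries and 10.01, 11.5 and 10.5 in the red ones at color break. At maturity it was 10.6, 11.5 and 11.2 in yellow and 1.37, 1.09 and 1.40 in red. The 9 libraries of the first 3 groups stayed close to each other, and the 3 of the ripe red fruit were far below all of them.

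Solyc11g018550 was 9.44-fold lower in red than in yellow at maturity (log2 fold change -3.24 ± 0.11, edgeR adjusted p = 1.97e-11) and fell 9.21-fold from color break to maturity in red (-3.20 ± 0.11, edgeR adjusted p = 1.28e-11). The values for yellow and for color break were 0.26 and 0.22. The difference between the stage changes was -3.46 ± 0.14 (edgeR adjusted p = 3.51e-10).

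The other called ascorbate peroxidase, Solyc02g083620, differed between the tomatoes at both stages. It lies on chromosome 2 (47517780 to 47522066, plus strand), 1620 bases from the peroxisomal ascorbate peroxidase gene Solyc02g083630, whose FPKM did not exceed 0.604 in any library. Solyc02g083620 had an FPKM of 2.72, 2.02 and 2.84 in the yellow libraries and 0.845, 1.07 and 0.702 in the red ones at color break. At maturity the yellow libraries had 3.72, 3.27 and 2.97 and the red ones 1.16, 1.504 and 1.26. Yellow was above red in all libraries of both stages. The fold was 2.88 at color break (log2 fold change -1.53 ± 0.18, edgeR adjusted p = 1.58e-05) and 2.79 at maturity (-1.48 ± 0.18, edgeR adjusted p = 9.4e-06), and the difference of 0.05 between the stage changes was not called.

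The remaining 6 ascorbate peroxidases stayed within a log2 fold change of 1 in every comparison. APX2, by mean FPKM the highest of the 42 members, had 950, 972 and 963 in the yellow libraries and 1207, 1173 and 1209 in the red ones at color break, and 1032, 1045 and 1061 in the yellow libraries and 997, 1023 and 971 in the red ones at maturity. Red was above yellow at color break and below it at maturity, in each case without overlap, by 0.32 ± 0.03 and -0.21 ± 0.03 on the log2 scale (edgeR adjusted p = 1.28e-06 and 3.71e-05). Ascorbate peroxidase 3 (Solyc01g111510) came close to the minimum, with mean FPKM of 61.4 in yellow and 115.6 in red at color break, and 47.7 in yellow and 66.8 in red at maturity. It was 0.91 ± 0.04 higher in red at color break (edgeR adjusted p = 3.03e-10) and 0.95 ± 0.04 lower at maturity than at color break in red (edgeR adjusted p = 4.63e-11).

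The neighbouring genes Solyc06g005150 and Solyc06g005160, described as ascorbate peroxidase and cytosolic ascorbate peroxidase 1, lie 8406 bases apart on opposite strands of chromosome 6. Their mean FPKM ran from 127.5 to 156 and from 122 to 166 over the 4 groups. In yellow the second was 0.42 ± 0.05 higher at maturity on the log2 scale, and the first 0.21 ± 0.05 higher. Solyc06g060260 was 0.54 ± 0.04 lower in red at color break (87.5 against 60.3 FPKM) and 0.52 ± 0.04 higher at maturity than at color break in red. The putative ascorbate peroxidase 6, Solyc08g059760, had its highest group mean in red at maturity (23.2 ± 1.2 FPKM, against 12.7 to 14.7 in the other groups), 0.52 ± 0.06 above yellow on the log2 scale. These genes belong to 1 family with close relatives, and reads shared between copies may have been divided by the authors' counting, so differences of this size between single copies are uncertain.

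Glutathione peroxidases, which in plants mostly use thioredoxin to reduce lipid peroxides, were among the steadier members. All 3 were expressed in every library, and their log2 fold changes over the comparisons of 2 groups lay between -0.64 and 0.39. The glutathione peroxidase Solyc08g080940 had an FPKM of 208, 207 and 190 in the yellow libraries and 201, 204 and 208 in the red ones at color break. At maturity it had 243, 236 and 240 in yellow and 196, 153 and 158 in red, so that red lay below yellow in all 3 libraries after overlapping with it at color break. The edgeR log2 fold change at maturity was -0.64 ± 0.08 (adjusted p = 1.65e-05), under the minimum. The probable glutathione peroxidase 2, Solyc06g073460, had mean FPKM of 85.8, 112.6, 88.9 and 81.0 in the same order of groups and was 0.63 ± 0.06 lower at maturity in red. Solyc12g056240 lay between 67.6 and 73.8 in all 4 group means.

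Peroxiredoxins reduce peroxides with a cysteine in place of a heme, and the pair found here went separate ways. Thioredoxin peroxidase 1 (Solyc07g020860) had an FPKM of 565, 604 and 555 in the yellow libraries and 690, 680 and 717 in the red ones at color break. Ripe fruit had 712, 695 and 715 in yellow and 1181, 1079 and 1049 in red. Red was above yellow at both stages with no overlap, by 0.28 ± 0.05 and 0.50 ± 0.05 on the log2 scale (edgeR adjusted p = 0.000745 and 2.01e-06), both under the minimum.

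The other peroxiredoxin fell with ripening in both tomatoes. Solyc03g096040 (chromosome 3, 59284888 to 59286761, plus strand) has no description, and its KEGG entry, K11188, is that of the 1-Cys type, which in barley and Arabidopsis is known as a protein of the seed. Its FPKM was 79.5, 76.3 and 73.4 in the yellow libraries and 134, 138 and 141.5 in the red ones at color break. At maturity it was 13.5, 14.1 and 15.9 in yellow, and in red 1.79 in replicate 1 and 0 in replicates 2 and 3, with counts of 107, 0 and 0. Red was thus above yellow at color break and below it at maturity, with no overlap at either stage.

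Solyc03g096040 fell 5.36-fold from color break to maturity in yellow (log2 fold change -2.42 ± 0.31, edgeR adjusted p = 2.61e-05). In red the fitted fall was -8.04 ± 0.46 (edgeR adjusted p = 2.88e-09), and red was lower than yellow at maturity by a fitted -4.76 ± 0.50 (edgeR adjusted p = 2.41e-06). These fits rest on replicate 1: without it the ripe red libraries held 0 counts, which, against a floor of 3 counts over both, makes them at least 5980-fold lower than red at color break and at least 627-fold lower than yellow at maturity. Red was higher at color break by 0.85 ± 0.28 (edgeR adjusted p = 0.025), under the minimum. All groups share 1 estimate of the spread, so replicate 1 also entered the SEs of comparisons without it. Leaving it out gave 0.85 ± 0.05 at color break (edgeR adjusted p = 2.1e-09) and -2.42 ± 0.06 for the fall in yellow (edgeR adjusted p = 2.39e-14). Over 20 alternative runs of edgeR and other tests, the adjusted p at color break ran from 1.81e-10 to 0.45. The stage changes differed by a fitted -5.61 ± 0.58 (edgeR adjusted p = 3.52e-06). Without replicate 1 the fit gave -13.72 (edgeR adjusted p = 4.94e-15), which is no bound; with the same floor, the change in red minus that in yellow was -10.13 or further from 0 on the log2 scale.

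Most of the seed genes moved with this peroxiredoxin. The summed FPKM of the list stands with the depth values above. Of the 11 that were tested, 3 were higher in red at color break, and 8 were lower in red at maturity, beside 4.12% and 7.89% of all genes. From color break to maturity 9 fell in yellow and 9 in red, beside 4.88% and 11.5% of all genes. The 2 not called between stages were Solyc01g095150 and Solyc08g066040. The first had mean FPKM of 140 and 134 in yellow and red at color break, and 156 and 180 at maturity. Group means of the second lay between 1.79 and 2.23. The median log2 fold change of the 11 in these 4 comparisons was 0.86, -3.49, -2.30 and -6.30. Without replicate 1 of red at maturity, 9 were lower in red at maturity and 9 fell in red, with medians of -4.64 and -7.53 when the 3 genes then at 0 counts are set at their bounds. The 4 oleosins, proteins of seed oil bodies, summed to 15.6 FPKM in replicate 1 of red at maturity and to 1.16 and 1.73 in replicates 2 and 3, where 2 of the 4 were at 0, and to between 74.4 and 81.1 in yellow at maturity. Of the 12 seed genes, 3 and 4 were at 0 in replicates 2 and 3 of red at maturity. The part of seed RNA in the values of Solyc03g096040 was not tested.

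**Figure D3:**
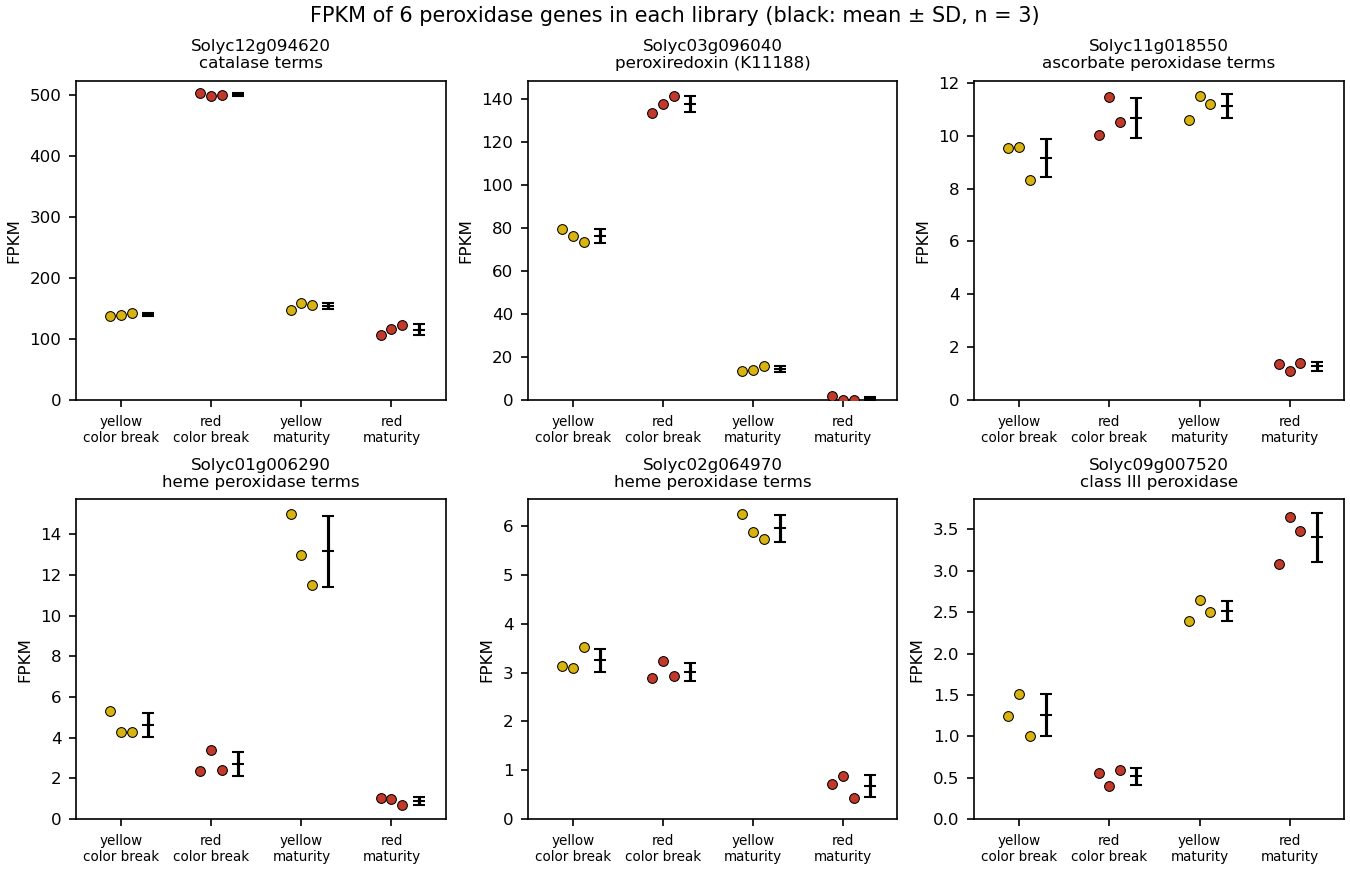
Each panel gives the FPKM of 1 gene in the 12 libraries (points, colored by tomato), with the mean and SD of 3 libraries in black and the 4 groups on the x axis. Solyc12g094620 stands out in red at color break, at 498 to 504 FPKM, Solyc03g096040, Solyc11g018550, Solyc01g006290 and Solyc02g064970 are lowest in red at maturity, and Solyc09g007520 is highest there.

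Among the secreted class III peroxidases, 4 of 7 members were called between the tomatoes at color break, 1 of them higher in red and 3 lower, and 2 at maturity, both lower, beside 6.2% and 11.1% of all genes. For each tomato 2 were called between stages, 1 in each direction, beside 6.35% and 15.5% of all genes. Of the called genes, Solyc01g105070 passed the filter through 3 libraries, all yellow, and Solyc03g033690 through 4, all at color break. These counts are therefore a description. All of these calls fell on low genes, with mean FPKM under 5. The class III gene with the most RNA, Solyc02g087190, had an FPKM of 53.2, 56.8 and 57.2 in the yellow libraries and 44.7, 46.2 and 44.8 in the red ones at color break, and 61.0, 59.8 and 57.3 in the yellow libraries and 46.1, 50.4 and 47.9 in the red ones at maturity. Yellow lay above red in all libraries of both stages, by 0.30 ± 0.04 and 0.44 ± 0.04 on the log2 scale (edgeR adjusted p = 7.1e-05 and 1.08e-06), which is under the minimum. Solyc07g047740 had group means between 9.69 and 11.8 FPKM, and Solyc08g069040 between 2.17 and 3.26.

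Solyc09g007520 (chromosome 9, 1092996 to 1099542, minus strand) was the class III gene that rose with ripening in red. Its FPKM was 1.24, 1.51 and 1.01 in the yellow libraries and 0.558, 0.394 and 0.595 in the red ones at color break. At maturity it was 2.40, 2.64 and 2.51 in yellow and 3.08, 3.65 and 3.48 in red. Red started below yellow and ended above it, with no overlap at either stage. It was 2.41-fold lower in red at color break (log2 fold change -1.27 ± 0.19, edgeR adjusted p = 0.00013), and rose 5.86-fold in red (2.55 ± 0.19, edgeR adjusted p = 4.53e-08). In yellow the change was 0.98 ± 0.18 (edgeR adjusted p = 0.000523), just under the minimum, and it was called without replicate 2 of yellow at color break (1.14) or replicate 1 of yellow at maturity (1.02). The stage changes differed by 1.57 ± 0.26 (edgeR adjusted p = 0.000217). The difference of 0.30 at maturity was not called.

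Solyc02g092580 was nearly silent in yellow at color break, at 0.121, 0 and 0.174 FPKM, and had 1.28, 0.671 and 1.02 in red. At maturity the yellow libraries reached 0.676, 1.21 and 1.15 and the red ones 1.46, 1.51 and 1.94. The yellow libraries at color break lay below all others. Its fitted log2 fold change was 3.24 ± 0.53 for red against yellow at color break (edgeR adjusted p = 0.000231) and 3.26 ± 0.53 for the stage change in yellow (edgeR adjusted p = 0.000224). On the log2(FPKM + 1) scale the same differences were 0.85 and 0.87, and neither was called there. Leaving out replicate 3 of the yellow libraries at color break moved the fits to 3.87 and 3.89. For the stage change in red it was 0.56 ± 0.41, and the stage changes differed by -2.70 ± 0.67 (edgeR adjusted p = 0.00487), or by -3.33 without that library.

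Solyc03g033690 took the opposite course, with 1.40, 1.495 and 1.83 FPKM in the yellow libraries and 0.623, 1.06 and 0.527 in the red ones at color break. At maturity it had 0.907, 0.400 and 0.346 in yellow and 0 counts in each of the 3 red libraries. The groups did not overlap at either stage. With a floor of 3 counts over the group, red at maturity was at least 38.9-fold lower than yellow at maturity, which held 118 counts (edgeR adjusted p = 1.59e-05), and at least 50.8-fold lower than red at color break, which held 155 (edgeR adjusted p = 4.94e-06). In yellow it fell by 1.51 ± 0.37 on the log2 scale (edgeR adjusted p = 0.00646). Red was lower at color break by -1.09 ± 0.36 (edgeR adjusted p = 0.0292), a call lost without any 1 of 4 libraries: without replicate 2 or 3 of yellow it was -1.13 and -0.98, and without replicate 1 or 3 of red -0.98 and -0.92.

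Solyc01g105070, the last of the class III calls, was lower in red at both stages. Its FPKM was 1.002, 0.771 and 0.840 in the yellow libraries and 0.382, 0.290 and 0.213 in the red ones at color break, and 1.11, 0.590 and 1.03 in the yellow libraries and 0.209, 0.202 and 0.214 in the red ones at maturity. Every yellow library lay above every red one. The log2 fold change was -1.53 ± 0.29 at color break (edgeR adjusted p = 0.000727) and -2.23 ± 0.30 at maturity (edgeR adjusted p = 2.67e-05).

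Of the 9 genes with heme peroxidase terms whose class is not told, 2 were called at color break, both higher in red, and 3 at maturity, 1 higher and 2 lower. Among all genes, 4.12% were called higher at color break, and 3.26% higher and 7.89% lower at maturity. In yellow 2 rose to maturity, beside 1.47% of all genes, and in red 2 fell, beside 11.5%. Solyc01g006290 (chromosome 1, 884367 to 886987, plus strand) was the 1 member of the 42 called in opposite directions in the stage changes of the 2 tomatoes. It lies 1495 bases from the class III gene Solyc01g006300, on the other strand, whose FPKM was at most 0.132. Solyc01g006290 had 5.31, 4.27 and 4.29 FPKM in the yellow libraries and 2.37, 3.38 and 2.39 in the red ones at color break. At maturity it had 15.0, 13.0 and 11.5 in yellow and 1.04, 0.970 and 0.669 in red. The gap between the tomatoes, present without overlap at color break, was much wider at maturity.

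Solyc01g006290 rose 2.8-fold in yellow (log2 fold change 1.48 ± 0.17, edgeR adjusted p = 9.18e-06) and fell 3.36-fold in red (-1.75 ± 0.20, edgeR adjusted p = 3.74e-06), which left red 16.0-fold lower at maturity (-4.00 ± 0.20, edgeR adjusted p = 1.08e-09). At color break the difference was -0.77 ± 0.17, under the minimum. The stage changes differed by -3.23 ± 0.26 (edgeR adjusted p = 3.07e-07).

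A second gene of this kind, Solyc02g064970 (chromosome 2, 36663163 to 36665161, plus strand), had 3.14, 3.09 and 3.52 FPKM in the yellow libraries and 2.89, 3.23 and 2.93 in the red ones at color break, where the groups overlapped. Ripe fruit had 6.26, 5.88 and 5.74 in yellow and 0.709, 0.875 and 0.432 in red, with a wide gap. It was 9.67-fold lower in red at maturity (log2 fold change -3.27 ± 0.19, edgeR adjusted p = 4.84e-09) and fell 4.97-fold in red (-2.31 ± 0.19, edgeR adjusted p = 1.04e-07). In yellow it was higher at maturity by 0.85 ± 0.16, under the minimum, and the stage changes differed by -3.17 ± 0.25 (edgeR adjusted p = 2.3e-07).

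The pair that was higher in red at color break was low throughout. Solyc04g071900 passed the filter through 6 libraries and Solyc03g044097 through 4, all of them red. The filter thus favoured a higher level in red, and their values are a description. Solyc04g071900 had 0.594, 0.851 and 0.804 FPKM in the yellow libraries and 2.46, 2.24 and 2.58 in the red ones at color break, and 0.769, 0.803 and 0.770 in the yellow libraries and 1.42, 2.13 and 1.32 in the red ones at maturity. Red lay above yellow in all libraries of both stages, by 1.69 ± 0.19 at color break (edgeR adjusted p = 8.15e-06) and by 0.91 ± 0.19 at maturity, which was called without replicate 3 of red at maturity (1.05). Solyc03g044097 had 0.403, 0.237 and 0.307 FPKM in the yellow libraries and 1.11, 0.714 and 0.570 in the red ones at color break. At maturity it had 0.526, 0.763 and 0.698 in yellow and 1.54, 1.89 and 1.46 in red. Again every red library lay above every yellow one of its stage, by 1.31 ± 0.28 (edgeR adjusted p = 0.00183) and 1.16 ± 0.26 (edgeR adjusted p = 0.00172). Its rise of 1.02 ± 0.28 in yellow (edgeR adjusted p = 0.0107) was not called without replicate 2 or 3 of yellow at color break (0.86 and 0.99) or replicate 2 or 3 of yellow at maturity (0.91 and 0.98).

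Solyc02g079500, whose terms place it outside the cell, had 5.98, 6.08 and 5.76 FPKM in the yellow libraries and 4.10, 4.32 and 4.27 in the red ones at color break, and 3.37, 3.52 and 2.44 in the yellow libraries and 4.42, 5.48 and 5.08 in the red ones at maturity. Yellow was above red at first and below it at maturity, without overlap. No comparison of 2 groups called it, although the change of -0.95 in yellow was called without replicate 1 or 2 of yellow at maturity (-1.02 and -1.05). The stage changes differed by 1.03 ± 0.16 (edgeR adjusted p = 0.000137), which became 0.89 without replicate 3 of yellow at maturity and 0.97 without replicate 2 of red at maturity, so that the call was lost. The other 4 genes of the set, Solyc06g076640, Solyc02g083500, Solyc12g096520 and Solyc06g082420, had group means from 1.94 to 35.6 FPKM and no call. The first of them also carries tubulin terms and was 0.90 ± 0.06 lower in red at maturity (35.6 against 21.1 FPKM, edgeR adjusted p = 4.98e-08).

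The NADPH oxidase type genes make superoxide at membranes, from which hydrogen peroxide forms, and they carry the peroxidase term beside their oxidase terms. Of the 4 that passed, 1 was called lower in red at maturity, 1 fell in yellow and 2 fell in red. The shares of all genes called lower in these comparisons were 7.89%, 4.88% and 11.5%. Solyc05g025687 had 11.98, 10.9 and 13.1 FPKM in the yellow libraries and 8.74, 9.12 and 6.84 in the red ones at color break. The ripe libraries gave 10.5, 11.5 and 9.85 in yellow and 1.82, 2.87 and 2.66 in red, so red was below yellow at both stages. It was 4.75-fold lower in red at maturity (log2 fold change -2.25 ± 0.15, edgeR adjusted p = 2.95e-08) and fell 3.74-fold in red (-1.91 ± 0.15, edgeR adjusted p = 9.9e-08), against -0.20 ± 0.14 in yellow. The stage changes differed by -1.71 ± 0.21 (edgeR adjusted p = 1.37e-05).

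Solyc06g068690 passed the filter through 4 libraries, all at color break, which favours a fall, so its values are a description. It fell in both tomatoes. It had 0.829, 0.963 and 1.09 FPKM in the yellow libraries and 1.34, 1.59 and 1.67 in the red ones at color break, and 0.399, 0.335 and 0.294 in the yellow libraries and 0.326, 0.407 and 0.324 in the red ones at maturity. All 6 ripe libraries lay below all 6 at color break. The fall was 2.82-fold in yellow (log2 fold change -1.50 ± 0.14, edgeR adjusted p = 1.76e-06) and 4.86-fold in red (-2.28 ± 0.14, edgeR adjusted p = 7.15e-09). The gene overlaps a gene on the other strand, Solyc06g068700, by 7067 bases, but the group means of the latter were at most 0.0574 FPKM. Solyc03g117980 was 0.93 ± 0.13 higher in red at maturity (edgeR adjusted p = 2.85e-05), under the minimum.

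The members described as something other than a peroxidase held the annexins, proteins that bind membranes in the presence of calcium. Solyc04g073990 had 198, 197 and 206 FPKM in the yellow libraries and 173, 174 and 176.5 in the red ones at color break. Ripe fruit gave 282.5, 278 and 293 in yellow and 108, 107 and 101 in red. Red was below yellow without overlap at both stages, by 0.20 ± 0.04 on the log2 scale at color break and 2.97-fold at maturity (log2 fold change -1.57 ± 0.04, edgeR adjusted p = 1.52e-12). It was 0.48 ± 0.04 higher at maturity in yellow and 0.89 ± 0.04 lower in red, both under the minimum, and these changes differed by -1.37 ± 0.06 (edgeR adjusted p = 3.22e-10).

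The second annexin, Solyc04g055170, named here after its values were seen, had group means of 14.6 and 16.7 FPKM in yellow and red at color break and 15.3 and 4.33 at maturity. It was 1.96 ± 0.06 lower in red at maturity on the log2 scale (edgeR adjusted p = 1.14e-11) and fell by 2.11 ± 0.06 in red (edgeR adjusted p = 3.3e-12). It overlaps the opposite-strand gene Solyc04g055160 by 3175 bases, whose group means were 16.6, 11.9, 11.7 and 6.62 FPKM. Since the use of strand in counting is not given in the sources used here, reads of these genes may not be told apart. In all, 6 members past the filter overlapped 7 other genes of the table, each on the opposite strand.

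The copper-zinc superoxide dismutase Solyc11g066390, which makes hydrogen peroxide from superoxide and is likewise named after its values were seen, fell by 1.14 ± 0.05 in red (42.4 to 21.5 FPKM, edgeR adjusted p = 8.86e-11), and was 0.63 ± 0.05 lower at maturity in yellow (43.7 to 28.7). The undescribed gene with glutathione transferase terms, Solyc07g056420, was lower in red at both stages, at 164 in yellow against 118 FPKM at color break and 178 against 125.5 at maturity, differences of 0.48 ± 0.03 and 0.65 ± 0.03 on the log2 scale.

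Set side by side, the line comparisons at the 2 stages, which share no library, called 4 members in both, each in the same direction: Solyc01g105070, Solyc02g083620 and Solyc03g033690 lower in red, and Solyc03g044097 higher. Of these, Solyc01g105070 passed the filter through 3 libraries, all yellow, and Solyc03g044097 through 4, all red. Solyc03g033690 passed it through 4, all at color break. At color break alone 4 were called, at maturity alone 7, and at neither stage 27. For the stage changes, which share no library either, 3 members fell in both tomatoes (Solyc03g033690, Solyc03g096040 and Solyc06g068690) and 1 was called in opposite directions. Solyc03g033690 and Solyc06g068690 passed the filter through libraries at color break alone. A further 2 were called in yellow alone, 7 in red alone and 29 in neither. The shares of all genes with the same patterns were not counted, so these counts only describe the members.

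A call in 1 tomato and not in the other does not show that the stage changes differ, so the difference itself was tested in the same fit. It was called for 12 of the 42 members (28.6%), beside 12.2% of all tested genes (3% with the more positive change in red and 9.23% with the more negative). Of these members, 6 were among the 29 with an FPKM of at least 1 in all libraries and 6 were not. The change in red was the more negative in 10 of the 12 and the more positive in 2, Solyc09g007520 and Solyc02g079500. The median difference over the members was -0.33, against -0.0031 over all genes. By class, the 12 held 3 class III genes, 3 heme genes of untold class, both annexins and 1 each of the ascorbate peroxidases, peroxiredoxins, catalases and NADPH oxidase type genes. The difference of the stage changes is by construction also the difference between the line comparisons at maturity and at color break.

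**Figure D4:**
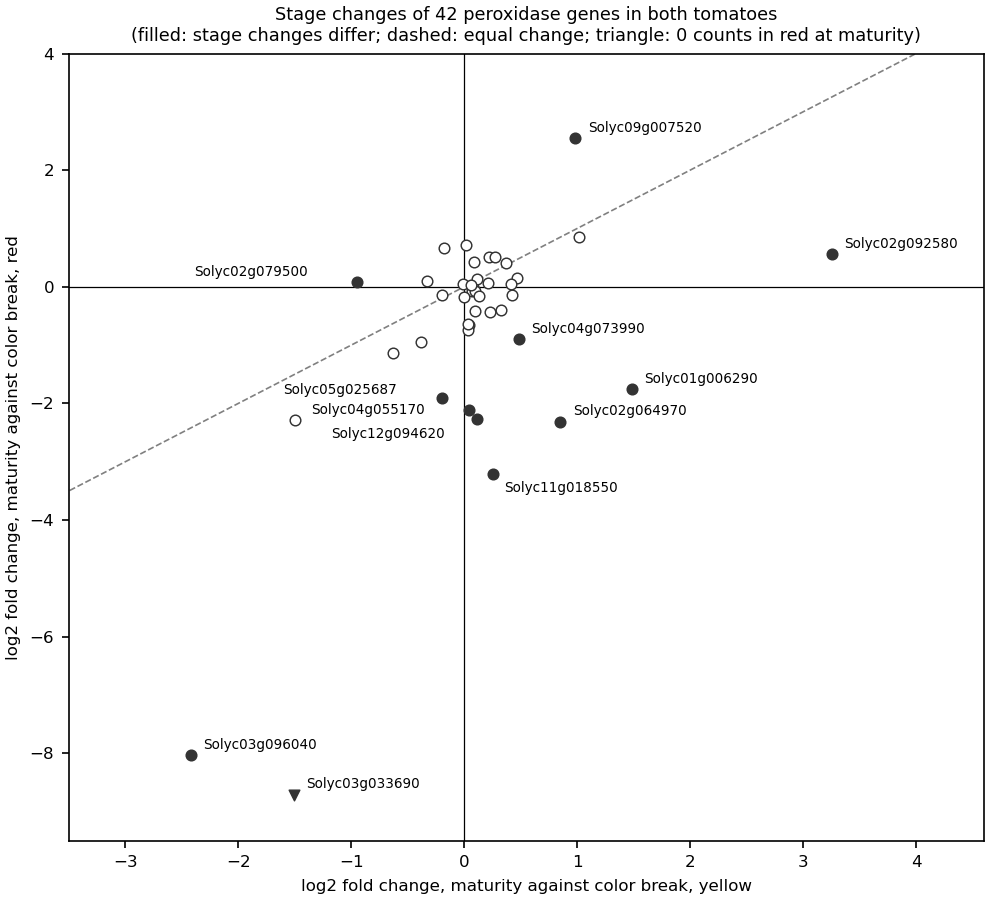
Each point is 1 of the 42 peroxidase genes, with the edgeR log2 fold change from color break to maturity in yellow on the x axis and in red on the y axis. Points on the dashed line changed equally, filled and named points are the 12 whose changes differed, 10 of them below the line, and the triangle is Solyc03g033690, whose fitted value in red is no bound.

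The genes that work around the peroxidases were taken from lists made by term or description. Beside their counts, 3.26% of all tested genes were called higher in red at maturity. From color break to maturity 3.93% rose and 11.5% fell in red, and 4.88% fell in yellow. Of 8 tested superoxide dismutase genes other than the member, 1 was called, Solyc01g095510, which was 1.12 ± 0.12 higher in red at maturity on the log2 scale (1.91 in yellow against 4.58 FPKM, edgeR adjusted p = 2.13e-06). The median of the 8 at maturity was -0.54. Solyc01g067740 and Solyc06g049080, which held more RNA, were lower in red there by less than the minimum, at 629 against 459 FPKM (-0.59 ± 0.07, edgeR adjusted p = 6.28e-06) and 181 against 120 FPKM (-0.73 ± 0.05, edgeR adjusted p = 1.74e-08). These 2, like the catalase-term genes that follow, are named after their values were seen. Of 5 tested genes with a catalase term that lack the peroxidase term, 3 rose with ripening in red, among them Solyc01g100640, from 20.0 to 57.0 FPKM (1.35 ± 0.07, edgeR adjusted p = 8.54e-10), and Solyc01g099420, from 2.00 to 8.46 (1.91 ± 0.27, edgeR adjusted p = 3.18e-05). The other 2 were lower at maturity in red by less than the minimum: Solyc04g054980 went from 257 to 194 FPKM (-0.56 ± 0.06, edgeR adjusted p = 9.61e-07) and CAT1 (Solyc04g082460) from 72.3 to 52.3 (-0.63 ± 0.04, edgeR adjusted p = 2.64e-09). Of 14 tested genes for the recycling of ascorbate and glutathione, Solyc06g075513 fell in both tomatoes, from 3.33 to 0.449 FPKM in yellow (-2.89 ± 0.35, edgeR adjusted p = 1.63e-05) and from 3.56 to 0.253 in red (-3.88 ± 0.37, edgeR adjusted p = 6.61e-07), and the other 13 were not called in a comparison of 2 groups.

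Lignin monomers are substrates of class III peroxidases. Of the 5 tested genes of their synthesis, 2 were lower in red at maturity, beside 7.89% of all genes, and the other 3 had log2 fold changes between -0.17 and -0.03 there. Cinnamoyl-CoA reductase (Solyc06g068440) had mean FPKM of 137 in each tomato at color break, 153 in yellow at maturity and 69.1 in red at maturity (log2 fold change at maturity -1.29 ± 0.04, edgeR adjusted p = 2.07e-11). Shikimate O-hydroxycinnamoyltransferase (Solyc03g117600) rose in yellow from 8.41 to 18.4 FPKM (1.11 ± 0.06, edgeR adjusted p = 6.35e-09) and fell in red from 14.1 to 7.57 (-1.06 ± 0.06, edgeR adjusted p = 2.17e-09). Few wall genes of other lists passed the filter: 1 of 10 laccases, 1 of 6 genes of suberin and cutin synthesis, 4 of 26 vascular markers and 2 of 3 surface markers. Over the comparisons of 2 groups their log2 fold changes lay between -0.04 and 0.12, -0.07 and 0.18, -0.39 and 0.84, and -0.72 and 0.29 respectively. The vascular markers summed to between 97.8 and 99.8 FPKM in yellow and between 91.1 and 94.1 in red at color break, and to between 104 and 110.1 in yellow and between 132 and 160.3 in red at maturity. Of these sums, the cellulose synthase gene Solyc01g087210 held means of 48.9 and 45.0 FPKM in yellow and red at color break. At maturity it held 55.1 in yellow and 90.1 in red. None of the 4 tested vascular markers was called, and the part of these cells in the class III values was not tested.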

How the data were processed

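Fruit mRNA was taken from Trizol-extracted total RNA on oligo(dT) beads and sequenced as paired ends from strand-marking dUTP libraries, per the labels' protocols. In the single table that the authors deposited, every gene has 1 read count and 1 FPKM column per library; the count columns hold whole numbers and were taken as raw counts, and the FPKM columns were made by the authors. Per the submitters' processing notes the tools included StringTie 2.1.6 and HISAT2 2.2.1, beside cutadapt 1.9, edgeR and DESeq2. Not given in the sources used here are their roles, the genome build, the annotation and the strand setting of the counting. All 24 value columns matched a library, and 0 did not.

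Every gene that reached an FPKM of 1 in 3 or more libraries was tested with edgeR 4.0.16 (R 4.3.3) on the deposited counts with TMM scaling, in 1 fit of all 12 libraries with a mean per group, and p-values were adjusted over all 15974 genes. The fit was also run on simulated counts, drawn around 1 mean per gene, with changes placed in red at color break alone. That run held no outlying library, so it is no check of results that rest on 1 library, and its outcome is not used here. SEs were computed from the fold change and its F statistic. Alternatives were DESeq2 1.42.0, limma 3.58.1 on log2(FPKM + 1) and log2(FPKM + 0.1), other scalings and filters, fits of the compared groups alone, a replicate block, and leaving out each library. The labels tie the replicate numbers to no shared plant or day, and same-numbered libraries did not deviate together.

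Members and gene lists were chosen with earlier results of these data known. Classes follow the description, then the KEGG entry, then specific terms. Named genes are up to 6 called rises and 6 falls per comparison, the 5 highest means, every ascorbate and glutathione peroxidase, and up to 2 genes per related list and comparison; other genes named complete a class or list. Identifiers are printed without their version suffix.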

Additional observations from a re-analysis of the deposited data

Results flagged for a closer look

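In the test of the difference itself, the change from color break to maturity differed between the tomatoes for 11 of the 26 named peroxidase genes. A call needed an edgeR adjusted p under 0.05 and a difference of at least 1 on the log2 scale, given as red minus yellow. Of all tested genes, 12.2% were called. The naming rule took up to 6 genes in each direction from this same test, so the count of 11 is a description. Among the class III peroxidases the difference was 1.57 for Solyc09g007520, which rose in red, -2.7 for Solyc02g092580, which rose in yellow, and -7.2 for Solyc03g033690, where the red libraries at maturity held 0 counts and the value is a fit and no bound. With a floor of 3 counts over that group, the difference for Solyc03g033690 was -4.19 or further from 0. Limma on log2(FPKM + 1) gave -0.04 for Solyc03g033690 (adjusted p = 0.89), -0.46 for Solyc02g092580 and 0.89 for Solyc09g007520. None of these class III differences was called on that scale. Among genes with heme peroxidase terms the difference was -3.23 for Solyc01g006290, -3.17 for Solyc02g064970 and 1.03 for Solyc02g079500. For the last, limma on log2(FPKM + 1) gave 0.96, which was not called. It was -3.46 for the ascorbate peroxidase gene Solyc11g018550, -2.39 for the catalase-type gene Solyc12g094620 and -5.61 for the peroxiredoxin Solyc03g096040, whose ripe red counts come from replicate 1 alone; without it the fit gave -13.72, no bound. For the NADPH oxidase type gene Solyc05g025687 it was -1.71, and for the annexin Solyc04g073990 it was -1.37.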

How the results depend on the processing

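The counts of members called were 8 and 11 between the tomatoes at color break and maturity, 6 and 11 for the stage changes in yellow and red, and 12 for the difference of the stage changes. With no filter, which tests all 77 genes, the counts at maturity and for the stage changes in yellow and red became 18, 11 and 22, beside 10.2%, 6.19% and 15.8% of all genes. Keeping only genes with an FPKM of at least 5 left 29 members and gave 1 at color break, 7 at maturity and 2 for yellow, beside 4.23%, 8.57% and 4.57% of all genes, and limma on log2(FPKM + 1) gave 1, 7, 2 and 7 in the 4 comparisons of 2 groups. DESeq2 called 8, 10, 5, 10 and 11. Leaving out 1 library at a time gave 7 to 8, 11 to 12, 5 to 8, 11 to 12 and 11 to 12. With the replicate number as a block the counts were 8, 11, 6, 11 and 12, as without it, and the correlation of same-numbered deviations from the group means ran from -0.1 to 0.0856, so the numbers were not taken as pairs.

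For the 26 named genes, 22 of 44 calls held under every alternative run and 22 were lost under at least 1, most often on log2(FPKM + 1); 5 of 86 results not called became calls under at least 1, and 0 changed direction while called. For Solyc03g033690, mean FPKM of 0.551 and 0.735 rest on 118 and 155 counts over 3 libraries.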
